A study of Homo sapiens with 12 samples.

Results

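The keratin genes KRT5, KRT7, KRT8, KRT10, KRT15, KRT17, KRT18, KRT19, KRT80 and KRT81 were examined in 2 human prostate cancer cell lines. They were chosen by name, with earlier results of these data known. They are 10 of the 32077 genes, and 10 of the 40 keratin genes, in the deposited count table. RNA-seq was carried out on PC3 and DU145 cells, established androgen-independent lines, cultured for 48 hours in vehicle or in 2.5 µM pentamidine. Pentamidine is an antiparasitic diamidine. Both lines were labelled wild type and were grown in 6-well plates, and each of the 4 groups (PC3 vehicle, PC3 pentamidine, DU145 vehicle, DU145 pentamidine) held 3 samples, 12 in all. Oligo(dT) beads were used to enrich mRNA before sequencing. The sample labels do not say whether the 3 samples of a group came from separate cultures. If they did not, the p-values measure only the spread between these samples, which may be technical.

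Keratins are the intermediate filament proteins of epithelial cells. A filament is built from pairs of 1 acidic type I keratin (here KRT10, KRT15, KRT17, KRT18 and KRT19) and 1 basic to neutral type II keratin (KRT5, KRT7, KRT8, KRT80 and KRT81), so both types are needed for assembly. In the prostate, KRT8 and KRT18 mark luminal secretory cells, whereas KRT5 and KRT15 mark basal cells. KRT17 is a basal and stress keratin, KRT10 belongs to differentiating epidermis, and KRT81 is a hair keratin.

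Total counts were between 13514195 and 15131436 per sample, so 1 read was worth 0.0661 to 0.0740 CPM (the read count scaled to the library total). The labels were compared with marker genes. Of 6 epithelial markers (EPCAM, CDH1, CLDN3, CLDN4, CLDN7 and CDH3), the summed level was only 0.341 to 2.04 CPM in the 12 samples. EPCAM, the epithelial adhesion molecule, had 1, 0 and 0 reads in PC3 vehicle samples and 2, 0 and 0 in DU145 vehicle samples. CDH1, which encodes E-cadherin, had 10 reads or fewer in every sample. Expression of these markers is therefore close to absent in both lines, although both are labelled as carcinoma cells. CTNNA1, which encodes α-catenin and is known to be lost from PC3 cells, was at 441 CPM ± 5.12 in vehicle samples labelled PC3. This level goes against the PC3 label, and the names PC3 and DU145 are used below only as the labels give them. The summed levels of fibroblast, leukocyte and endothelial markers reached at most 3.12, 1.54 and 1.16 CPM in any sample.

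The RefSeq promoter table (GRCh38.p14) matched 3 of the 10 genes. The 250 bases before the RefSeq start are shown for KRT8 (chr12:52926470-52926719, minus strand), which differed most between the lines, and for KRT10 (chr17:40822615-40822864, minus strand), for which no response was detected. The KRT8 gene model spans 52897187 to 52949954, so this start lies inside it. Windows before any other KRT8 start, upstream or downstream, were not examined, and the start used in these cells was not measured. Capitals mark a match, on either strand, to 1 of these motifs. They are the TATA box, searched as TATAAA, the GC box, searched as GGGCGG, and the AP-1 site, searched as TGACTCA.
KRT8: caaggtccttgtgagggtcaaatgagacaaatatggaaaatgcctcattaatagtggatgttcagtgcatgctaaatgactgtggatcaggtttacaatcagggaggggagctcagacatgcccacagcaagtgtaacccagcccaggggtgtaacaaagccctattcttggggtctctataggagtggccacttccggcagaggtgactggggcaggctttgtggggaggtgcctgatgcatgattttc
KRT10: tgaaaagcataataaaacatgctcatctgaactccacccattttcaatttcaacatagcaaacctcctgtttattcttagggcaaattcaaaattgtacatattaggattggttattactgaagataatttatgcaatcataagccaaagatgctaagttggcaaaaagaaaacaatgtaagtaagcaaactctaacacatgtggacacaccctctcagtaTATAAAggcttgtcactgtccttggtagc
The KRT10 window held TATAAA 29 bases before the start, a motif found in 10.7% of all 35116 promoter windows of that length. The KRT8 window held no match to these letters. The GC box letters were found in 42.6% of the windows and the AP-1 letters in 4.20%, and neither was in the KRT8 or the KRT10 window.

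Which keratins each line expressed was read from the vehicle samples. Luminal keratins made up most of the keratin RNA in both lines, but at very different levels. The summed level of the 10 genes was 256 CPM ± 12.1 in PC3 cells and 3577 CPM ± 80.3 in DU145 cells. KRT7, KRT8, KRT18 and KRT19, grouped here as luminal, together held 69.7% ± 2.32 and 99.0% ± 0.0262 of it. In PC3 cells most of that share was KRT18 alone (157 CPM ± 13.5), with KRT8 at 20.5 ± 1.37 and KRT7 at 1.60 ± 0.312. In a culture measured in bulk, fewer expressing cells and less RNA per cell cannot be told apart.

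KRT8, the main type II luminal keratin, had 307, 286 and 290 reads in PC3 vehicle samples and 37461, 38812 and 37997 in DU145 vehicle samples. The groups lay far apart, and KRT8 was 136-fold higher in DU145 cells (log2 difference, PC3 minus DU145, -7.09 ± 0.0635 SE, adjusted p = 3.2e-20). KRT18, its type I partner, had 2125, 2313 and 2320 reads in PC3 cells and 11991, 13423 and 13203 in DU145 cells. It was 6.00-fold higher in DU145 cells (log2 difference -2.59 ± 0.0603, adjusted p = 2.0e-15). Compared per kilobase of exon, KRT8 stood at 0.0613 ± 0.00545 of KRT18 in PC3 cells and at 1.39 ± 0.0647 in DU145 cells. By read counts not divided by exon length, vehicle samples had a ratio of 0.131 ± 0.0117 in PC3 and 2.96 ± 0.138 in DU145. On either scale KRT8 was below KRT18 in PC3 cells and above it in DU145 cells.

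KRT7, a type II keratin of simple and ductal epithelia, had 19, 24 and 26 reads in PC3 vehicle samples and 176, 196 and 233 in DU145 vehicle samples, 9.18-fold higher in DU145 cells (log2 difference -3.20 ± 0.176, adjusted p = 1.2e-10). KRT19, the smallest type I keratin and a common luminal marker, had 0 to 3 reads in each of the 12 samples and was not tested. It was thus at the limit of detection in both lines.

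KRT80 and KRT10 went the other way. KRT80, a type II keratin of many epithelia, had 886, 951 and 864 reads in PC3 cells and 445, 462 and 431 in DU145 cells, 1.91-fold higher in PC3 cells (log2 difference 0.94 ± 0.0674, adjusted p = 3.4e-09). KRT10 had 239, 231 and 136 reads in PC3 cells and 66, 92 and 77 in DU145 cells, 2.43-fold higher in PC3 cells (log2 difference 1.28 ± 0.174, adjusted p = 6.5e-06). The groups did not overlap for either gene.

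Basal keratins were scarce. KRT17 had 6, 6 and 1 reads in PC3 vehicle samples and 0 in each of the DU145 samples, so it was at least 4.35-fold higher in PC3 vehicle samples when 3 reads over the group are taken as the floor. KRT15 had 13, 6 and 4 reads in PC3 and 7, 1 and 7 in DU145 vehicle samples, with overlap. KRT5, the type II partner of basal cells, had at most 1 read in any PC3 sample and 0 in every DU145 sample, which allows up to 0.0692 CPM in the DU145 vehicle group. KRT81 had 1, 4 and 0 reads in PC3 and 3, 2 and 5 in DU145 vehicle samples. KRT14, the usual type I partner of KRT5, was not among the 40 keratin genes of the count table, so its level could not be read.

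The order of levels per kilobase in PC3 vehicle samples was KRT18 (48.7 CPM per kilobase ± 4.20), KRT80 (14.4 ± 0.386), KRT10 (6.48 ± 1.57), KRT8 (2.97 ± 0.199) and KRT7 (0.392 ± 0.0763). KRT17, KRT15 and KRT81 followed at 0.0938 ± 0.0608, 0.0746 ± 0.0450 and 0.0575 ± 0.0711 CPM per kilobase, and these 3 neighbours did not differ beyond their spread. In DU145 vehicle samples the order was KRT8 (383 ± 12.1), KRT18 (277 ± 7.23), KRT80 (7.10 ± 0.402), KRT7 (3.40 ± 0.371) and KRT10 (2.52 ± 0.360). All other members were below 0.12 CPM per kilobase there. The order depends on the exon length used, which covers all annotated exons of a gene (6881 bases for KRT8, 2144 for KRT10). By CPM, KRT8 (20.5 ± 1.37) was above KRT10 (13.9 ± 3.36) in PC3 vehicle samples.

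**Figure D1:**
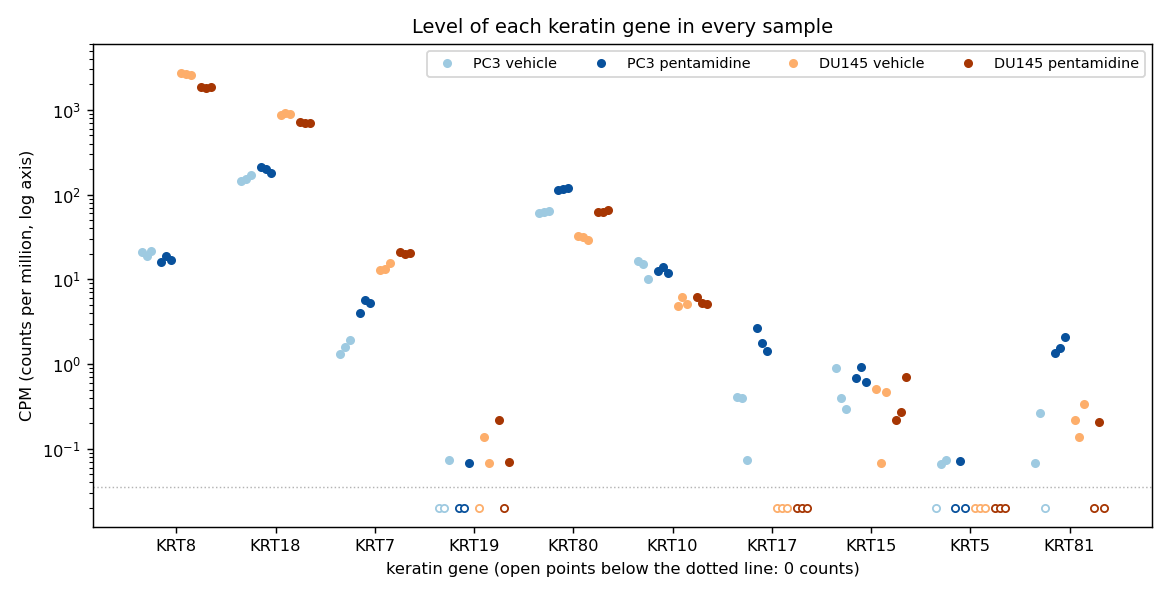
Level of each of the 10 keratin genes in every sample, in CPM on a log axis, with 1 point per sample and colour for the group. KRT8 in DU145 vehicle samples lies between 2549 and 2715 CPM and in PC3 vehicle samples between 18.9 and 21.5 CPM, and open points mark samples with 0 counts.

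Between the vehicle samples of the lines, 5 members had enough reads for the test, and all 5 differed at an adjusted p below 0.05 (quasi-likelihood F-test of edgeR, adjusted over all genes by the method of Benjamini and Hochberg, as for every adjusted p here). KRT10 and KRT80 were higher in PC3 cells, and KRT7, KRT8 and KRT18 were lower, with a median log2 difference of -2.59 against -0.010 over all 14394 genes tested. Of all genes, 31.5% were higher and 33.8% were lower in PC3 cells, and 19.2% also passed an absolute log2 difference of 1, as 4 members did. When genes with few reads were kept, KRT17 also passed, which made 6.

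To see how pentamidine changed these genes, treated and vehicle samples were compared within each line. In PC3 cells 5 members rose and none fell. KRT81, KRT17 and KRT7 rose the most, all from low levels, followed by KRT80 and KRT18. KRT17 and KRT81 had enough reads for the test only through the treated samples, so a fall could not have been called for them. Both are counted in the 5 and in the median below. With at least 10 counts required in every sample, 3 members passed. KRT8 and KRT10 did not pass the test, and KRT5, KRT15 and KRT19 had too few reads to be tested. The median log2 fold change of the 7 tested members was 0.93, against 0.0046 over all 13861 genes tested. Of all genes, 21.7% rose and 21.7% fell.

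KRT7 rose 3.15-fold in PC3 cells, from 19, 24 and 26 to 59, 80 and 78 reads (log2 fold change 1.65 ± 0.232, adjusted p = 1.9e-05). Every treated sample lay above every vehicle sample. KRT80 rose 1.90-fold, from 886, 951 and 864 to 1686, 1644 and 1781 reads (log2 fold change 0.93 ± 0.0562, adjusted p = 6.8e-10). It had the second highest level per kilobase in PC3 cells after KRT18. KRT18 rose less, 1.27-fold, from 2125, 2313 and 2320 to 3085, 2849 and 2654 reads (log2 fold change 0.35 ± 0.0694, adjusted p = 0.00060).

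The partner of KRT18 did not follow. KRT8 had 307, 286 and 290 reads without and 238, 267 and 251 reads with the drug, and in CPM the groups overlapped. Its log2 fold change was -0.22 (95% interval -0.43 to -0.0084, adjusted p = 0.087). The adjusted p was 0.012 when all 12 samples were fitted together, a fit that pools the spread of both lines. The KRT8 to KRT18 ratio per kilobase was 0.0613 ± 0.00545 without and 0.0414 ± 0.00459 with pentamidine, with no overlap. KRT10 had 239, 231 and 136 reads without and 187, 198 and 177 with the drug, a log2 fold change of -0.093 (95% interval -0.40 to 0.22).

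KRT17 went from 6, 6 and 1 to 39, 25 and 21 reads in PC3 cells, 6.43-fold (log2 fold change 2.68 ± 0.453, adjusted p = 0.00013). The treated level was 0.622 CPM per kilobase ± 0.202, far below KRT18 at 61.2 ± 4.89. KRT81 went from 1, 4 and 0 to 20, 22 and 31 reads, 13.7-fold (log2 fold change 3.78 ± 0.565, adjusted p = 3.9e-05). With so few vehicle reads its size rests on single libraries, and it was 5.26 on the log2 scale without PC3 vehicle sample 2. KRT15 had 13, 6 and 4 reads without and 10, 13 and 9 with pentamidine. KRT5 and KRT19 had at most 1 read in any PC3 sample.

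Of the 5 members that rose in PC3 cells, 3 (KRT7, KRT17 and KRT81) also passed an absolute log2 fold change of 1, the size used in the study, as did 4.75% of all genes tested in PC3 cells. KRT80, at 0.93, lay just below that limit. KRT17 and KRT81 had entered the test only through their treated samples.

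**Figure D2:**
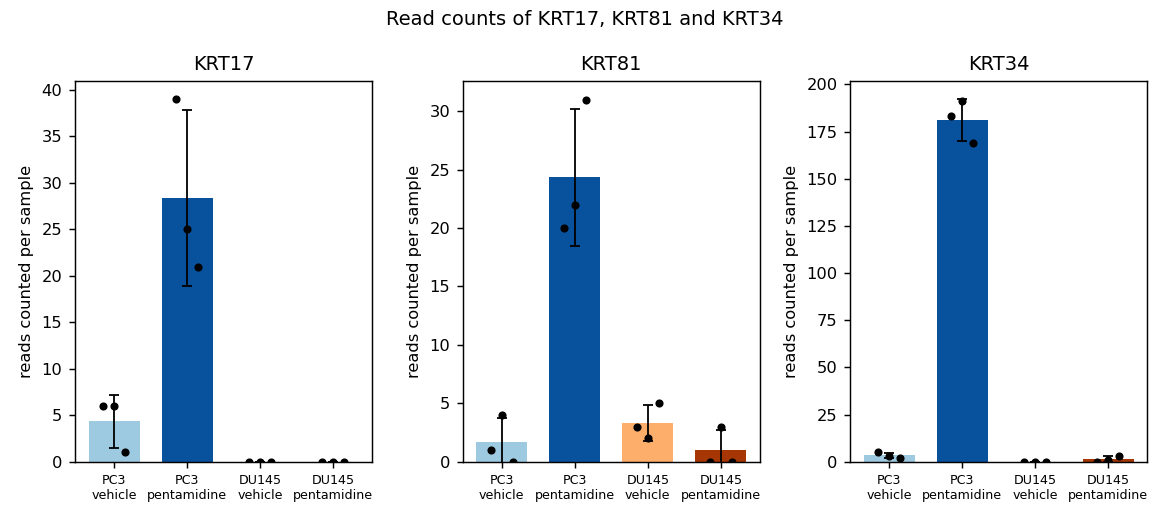
Reads counted per sample for KRT17, KRT81 and KRT34, with the bar at the group mean, the error bar at 1 SD and 1 point per sample (n = 3). PC3 pentamidine samples hold 21 to 39, 20 to 31 and 169 to 191 reads, and all other samples hold 6 or fewer.

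In DU145 cells 2 members rose, 2 fell and 1 did not pass the test. Both abundant luminal keratins fell, and KRT80 and KRT7 rose. The median log2 fold change of the 5 tested members was -0.012, against 0.0085 over all 14313 genes tested. Of all genes, 17.2% rose and 16.8% fell, and 2.03% passed an absolute log2 fold change of 1, as none of the members did.

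KRT8 went from 37461, 38812 and 37997 to 25835, 26744 and 26326 reads in DU145 cells, a log2 fold change of -0.56 ± 0.028 (adjusted p = 1.9e-23). KRT18 went from 11991, 13423 and 13203 to 10021, 10089 and 9962 reads, a log2 fold change of -0.39 ± 0.0300 (adjusted p = 1.1e-15). The groups were separate for both genes. In level this was a drop from 2636 CPM ± 83.2 to 1850 ± 13.3 for KRT8 and from 890 ± 23.3 to 705 ± 14.9 for KRT18.

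KRT80 rose 1.99-fold in DU145 cells, from 445, 462 and 431 to 861, 911 and 937 reads (log2 fold change 0.99 ± 0.0602, adjusted p = 7.7e-20). KRT7 rose 1.42-fold, from 176, 196 and 233 to 290, 292 and 294 reads (log2 fold change 0.51 ± 0.0952, adjusted p = 2.3e-05). All treated samples were above all vehicle samples for both genes. KRT10 had 66, 92 and 77 reads without and 87, 77 and 73 with pentamidine, a log2 fold change of -0.012 (95% interval -0.34 to 0.32).

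The remaining members stayed near the limit of detection in DU145 cells. KRT17 had 0 reads in all 6 samples, which allows up to 0.0703 CPM in the treated group. In treated cells KRT17 was at least 27.7-fold higher in PC3 than in DU145. KRT81 had 3, 2 and 5 reads without and 0, 3 and 0 with pentamidine, KRT15 had 7, 1 and 7 and then 3, 4 and 10, and KRT19 had 0, 2 and 1 and then 3, 0 and 1. KRT5 had 0 reads in all 6 samples.

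**Figure D3:**
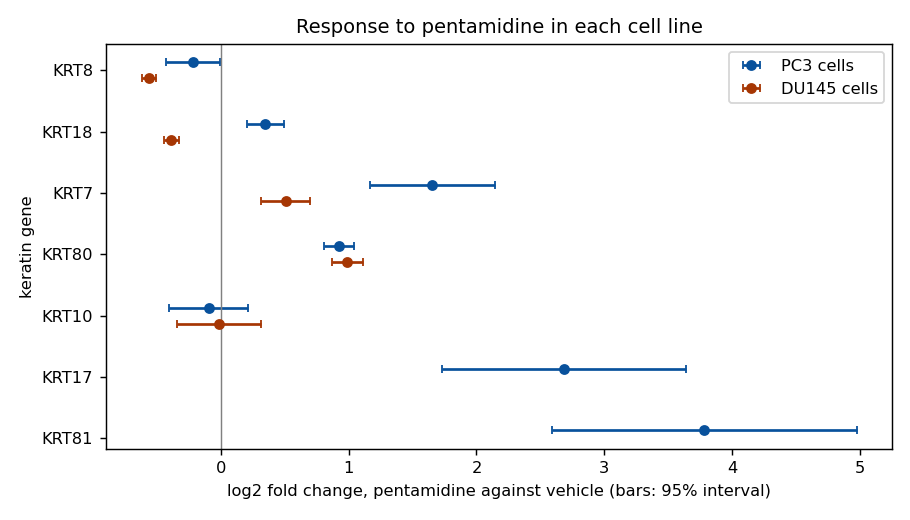
Log2 fold change of pentamidine against vehicle for the tested keratin genes in PC3 and DU145 cells, with 95% intervals from the edgeR fit (n = 3 per group). KRT80 sits at 0.93 and 0.99 in the 2 lines, whereas KRT18 sits at 0.35 in PC3 cells and at -0.39 in DU145 cells.

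Whether the response differed between the lines was tested with the interaction of treatment and cell line over all 12 samples. Each line's own response uses the same samples as the interaction, so these values are not independent. Of the 8 members tested, KRT7, KRT8, KRT18 and KRT81 had a higher log2 fold change in PC3 than in DU145 cells. No member had a lower one past the test. The background was 10.2% of 15226 genes higher and 10.3% lower, with 2.62% also past an absolute log2 difference of 1, as KRT7 and KRT81 were. KRT18 differed by 0.74 ± 0.0753 on the log2 scale (adjusted p = 3.0e-08), having risen in one line and fallen in the other. The difference was 0.34 ± 0.0814 for KRT8 (adjusted p = 0.0028) and 1.14 ± 0.232 for KRT7 (adjusted p = 0.00059). For KRT8 it marks a weaker decrease in PC3 cells. Its log2 fold change was -0.22 in PC3 cells, not past the test, and -0.56 in DU145 cells.

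KRT81 differed by 5.43 ± 1.19 (adjusted p = 0.0014), a value that was 6.91 without PC3 vehicle sample 2 and 8.59 without DU145 pentamidine sample 2. With each sample left out in turn it lay between 4.90 and 8.59, and over all alternatives between 1.47 and 8.59. KRT81 had enough reads for this test only through the treated PC3 samples. KRT80, which rose in both lines, differed by -0.065 (95% interval -0.23 to 0.098, adjusted p = 0.63). KRT10 differed by -0.082 (95% interval -0.55 to 0.39) and KRT15 by 0.33 (95% interval -1.37 to 2.04). For KRT17, with 0 reads in DU145 cells, the fitted interaction has no usable error and is not given.

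The total of the 10 genes and the balance of the types were compared by an exact permutation test, which with 3 samples against 3 cannot give a two-sided p below 0.1. The summed level was 256 CPM ± 12.1 without and 354 ± 13.6 with pentamidine in PC3 cells, and 3577 ± 80.3 and 2645 ± 28.0 in DU145 cells (exact two-sided p = 0.1 in each line). The groups did not overlap in either line, and the sum was higher with the drug in PC3 cells and lower in DU145 cells. The luminal share of the sum was 69.7% ± 2.32 and 61.9% ± 2.04 in PC3 cells and 99.0% ± 0.0262 and 97.4% ± 0.0763 in DU145 cells.

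Among the 10 genes, the ratio of type II to type I RNA per kilobase was 0.322 ± 0.00620 without and 0.467 ± 0.0530 with pentamidine in PC3 cells. KRT34, a type I keratin outside the 10, is not in this ratio. In PC3 cells KRT34 stood at 0.131 CPM per kilobase ± 0.0576 without and 7.12 ± 0.609 with the drug. In DU145 cells the ratio was 1.41 ± 0.0660 and 1.30 ± 0.0227. All treated samples were above all vehicle samples in PC3 cells and below them in DU145 cells (exact two-sided p = 0.1 in each line). In PC3 cells most of the type II signal per kilobase came from KRT80, and in DU145 cells from KRT8.

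**Figure D4:**
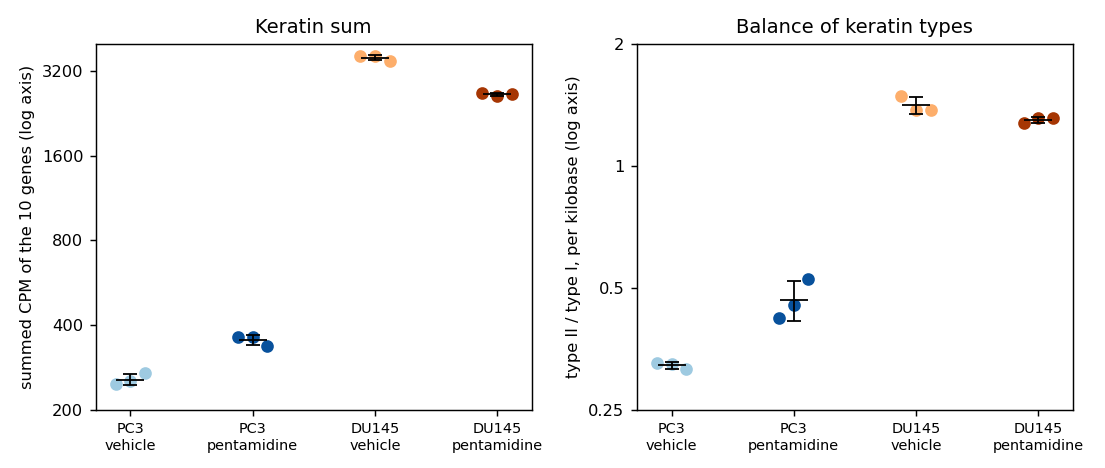
Summed CPM of the 10 keratin genes (left) and the ratio of type II to type I RNA per kilobase among them (right), each on a log axis. Points are single samples, shown with the mean and 1 SD (n = 3). The sum moves from 256 to 354 CPM in PC3 cells and from 3577 to 2645 CPM in DU145 cells.

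Some reads could be shared with other genes. KRT8 and KRT18 are neighbours on chromosome 12 (52897187 to 52949954 on the minus strand and 52948871 to 52952901 on the plus strand, GRCh38), and their exons overlap over 525 bases, 7.63% of KRT8 and 16.3% of KRT18. The protocol names no step that marks the strand, and whether counting used it is not stated, so reads from the overlap cannot be assigned to one of them. In PC3 cells 29 KRT8 pseudogenes together held 412 reads without and 419 with pentamidine, 46.7% and 55.4% of the KRT8 count. In DU145 cells they held 0.830% and 0.937%. With these reads added, KRT8 differed by -6.55 between the lines on the log2 scale. KRT7 overlaps KRT7-AS and KRT87P over 7.67% of its exons.

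KRT81 shares 25.1% of its 150-base stretches with the hair keratin KRT86. KRT83 and KRT86 together held 20 reads without and 40 with pentamidine in PC3 cells, against 5 and 73 for KRT81. With their reads added, the KRT81 response in PC3 cells was 2.17 on the log2 scale. KRT16, a stress keratin much like KRT17, had 0 reads in PC3 vehicle samples and 5, 6 and 3 in PC3 pentamidine samples, 16.5% of the KRT17 count there.

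The other 30 keratin genes were mostly silent. Of these, 26 had 1 to 10 reads over all 12 samples, and only KRT34 reached 1 CPM in a group mean. KRT34, a type I hair keratin, went from 5, 3 and 2 to 183, 191 and 169 reads in PC3 cells, 52.7-fold (log2 fold change 5.72 ± 0.255, adjusted p = 1.0e-11). Like KRT17 and KRT81, it had enough reads for the test only through the treated PC3 samples. In DU145 cells it had 0, 0 and 0 and then 0, 1 and 3 reads. At 7.12 CPM per kilobase ± 0.609 in treated PC3 cells, it was near the level of KRT10 (6.02 ± 0.494) and below KRT18 among the type I keratins.

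Genes that work with keratins were read from lists of desmosome and hemidesmosome genes, plakins and cornified envelope genes, other intermediate filaments, and epithelial transcription and splicing factors. Desmosomes join keratin filaments between cells and hemidesmosomes anchor them to the basement membrane. In PC3 cells 1 of the 15 tested desmosome and hemidesmosome genes rose and 5 fell (median log2 fold change -0.10). Of all genes tested there, 21.7% rose and 21.7% fell. ITGB4, the gene that rose, had enough reads for the test only through the treated samples. In DU145 cells 4 of 16 rose and 6 fell (median -0.091), where 17.2% of all genes rose and 16.8% fell.

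ITGB4, the integrin β4 chain of hemidesmosomes, rose in DU145 cells from 71, 62 and 42 to 156, 122 and 131 reads (log2 fold change 1.20 ± 0.166, adjusted p = 6.0e-08). In PC3 cells it went from 6, 8 and 8 to 18, 15 and 13 reads (1.06 ± 0.390, adjusted p = 0.037), and the adjusted p was 0.057 to 0.13 without any 1 of PC3 vehicle samples 1, 2 and 3 and PC3 pentamidine samples 1 and 2, 0.18 with DESeq2, 0.053 and 0.16 with limma on log2(CPM + 1) and log2(CPM + 0.1), and 0.081 with no filter on low counts. LAMB3, a chain of laminin 332, fell in PC3 and in DU145 cells (log2 fold changes -0.45 ± 0.0864 and -0.69 ± 0.115, adjusted p = 0.00043 and 2.8e-06). COL17A1, a hemidesmosome collagen, had a log2 fold change of -0.95 ± 0.263 in DU145 cells (adjusted p = 0.0035), and an adjusted p of 0.061 without DU145 vehicle sample 3 and 0.076 with limma on log2(CPM + 1).

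DSP encodes desmoplakin, the protein that ties keratin filaments to desmosomes, and was singled out after its values were seen. It had 2, 5 and 2 reads in PC3 vehicle samples and 1043, 1021 and 1091 in DU145 vehicle samples (log2 difference -8.47 ± 0.156, adjusted p = 1.3e-16). Both DSP and KRT8 RNA were low in PC3 cells, and a link between them was not tested. Of the 18 desmosome and hemidesmosome genes tested between the vehicle samples, 7 were higher and 9 lower in PC3 cells. The shares over all genes were 31.5% and 33.8%.

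Of the plakins and cornified envelope genes, 3 were tested in PC3 cells, where 2 fell and none rose (median log2 fold change -0.32, all genes 21.7% and 21.7%). In DU145 cells 5 were tested, of which 1 fell and none rose (median 0.0092), where 16.8% of all genes fell and 17.2% rose. SFN, an epithelial 14-3-3 protein, fell in PC3 and DU145 cells (log2 fold changes -0.32 ± 0.0803 and -0.26 ± 0.0411, adjusted p = 0.0042 and 9.8e-07). PPL, which encodes periplakin, went from 273, 238 and 198 to 195, 196 and 173 reads in PC3 cells (-0.32 ± 0.116, adjusted p = 0.034), and its adjusted p was 0.14 without PC3 vehicle sample 1, 0.075 without PC3 pentamidine sample 1, 0.14 without PC3 pentamidine sample 3, 0.090 with DESeq2 and 0.071 with limma on log2(CPM + 1).

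Other intermediate filament genes changed on both sides. In PC3 cells 2 of 6 rose and 3 fell (median log2 fold change 0.022, where 21.7% of all genes rose and 21.7% fell). In DU145 cells 3 of 7 rose and 1 fell (median 0.39, all genes 17.2% and 16.8%). VIM, the vimentin gene of mesenchymal filaments, rose in both lines (0.33 ± 0.0605 and 0.42 ± 0.0331, adjusted p = 0.00032 and 2.2e-15), and at 69.1 CPM per kilobase ± 5.29 in PC3 vehicle samples it was above each keratin there. The lamin genes LMNB1 and LMNB2 fell in PC3 cells (-0.84 ± 0.0601 and -0.59 ± 0.0469, adjusted p = 6.6e-09 and 2.2e-08). In DU145 cells LMNB2 fell less (-0.13 ± 0.0296, adjusted p = 0.00031, and 0.071 with limma on log2(CPM + 1)). LMNB1 did not pass the test there (-0.015, adjusted p = 0.78). LMNA fell in PC3 cells and rose in DU145 cells (-0.24 ± 0.0498 and 0.39 ± 0.0332, adjusted p = 0.0010 and 3.9e-14). SYNM, which encodes synemin, rose in DU145 cells (0.59 ± 0.0894, adjusted p = 3.7e-07) and in PC3 cells (0.88 ± 0.277, adjusted p = 0.016), where the adjusted p was 0.059 without PC3 vehicle sample 3, 0.096 without PC3 pentamidine sample 3, 0.071 with DESeq2, and 0.098 and 0.058 with limma on log2(CPM + 1) and log2(CPM + 0.1).

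Of the epithelial transcription and splicing factors, 3 of 8 rose and 1 fell in PC3 cells (median log2 fold change 0.18, all genes 21.7% and 21.7%). In DU145 cells 2 of 10 rose and 1 fell (median 0.011), where 17.2% and 16.8% of all genes did. KLF4, an epidermal differentiation factor, rose from 102, 92 and 94 to 750, 659 and 677 reads in PC3 cells (2.86 ± 0.0943, adjusted p = 1.6e-13). In DU145 cells it rose from 38, 36 and 40 to 135, 124 and 83 reads (1.56 ± 0.187, adjusted p = 1.5e-09). TFAP2A, an AP-2 factor, rose in PC3 and DU145 cells (0.32 ± 0.0697 and 0.53 ± 0.0711, adjusted p = 0.0012 and 2.4e-08). ZEB1, a repressor of epithelial genes, rose in PC3 cells (0.36 ± 0.0699, adjusted p = 0.00051). GRHL1, a grainyhead factor, fell in DU145 cells (-0.89 ± 0.165, adjusted p = 2.2e-05).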

How the data were processed

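Counts per gene of the 12 samples were deposited by the authors as whole reads without normalization. Per the labels and the study's methods, reads were aligned with HISAT2 2.1.0 to GRCh38. The counting program, annotation and strand setting are not given in the sources used here. A second table, named for FPKM, was deposited by the authors and holds CPM: 384876 of 384876 values equalled the count scaled to the library total (relative tolerance 1e-05). The authors' own fold changes and p-values, in 1 table per line, were not used. Lines of displaced annotation text (44) were left out of the count table, and 33595 entries gave 32077 genes after repeated entries were merged.

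Total counts were 13514195 to 15131436 per sample. A floor of 3 reads over a group was used for genes at 0, and floors and bounds cover counting error only. Groups came from the labels. edgeR 4.0.16 (R 4.3.3) was run with TMM normalization, filterByExpr (minimum count 10) and p-values adjusted over all genes tested by the method of Benjamini and Hochberg, for each line's 6 samples, for the 6 vehicle samples and, for the interaction, for all 12. A gene passed at an adjusted p below 0.05. The SE of a fold change was taken as its size over the square root of F. Alternatives used DESeq2 1.42.0 and limma 3.58.1 on log2(CPM + 1) and log2(CPM + 0.1), which understates the change of low genes. Further alternatives were RLE or library size scaling, TMM without mitochondria-encoded genes, other count filters, a replicate block, all 12 samples in 1 fit, an adjusted p below 0.01, pseudogene and paralog reads added, and each sample left out in turn. Exon lengths came from GENCODE release 29, as the bases covered by any annotated exon of a gene. The code was tested on simulated counts. The named genes are all 10 members, other keratin genes past the test with an absolute log2 fold change above 1 or at a mean of 1 CPM in a group, and, per list and line, the 3 largest changes past the test and any above 1. A gene that this rule names is not reported here. The members and lists were chosen with earlier results of these data known.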

Additional observations from a re-analysis of the deposited data

Results flagged for a closer look

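The response to pentamidine differed between the lines for several genes, by the interaction of treatment and cell line over all 12 samples in edgeR. As PC3 response minus DU145 response on the log2 scale, the difference was 1.14 for KRT7, 0.34 for KRT8, 0.74 for KRT18 and 5.43 for KRT81 (adjusted p = 0.00059, 0.0028, 3.0e-08 and 0.0014). KRT8 had log2 fold changes of -0.22 in PC3 and -0.56 in DU145 cells, so its difference marks a weaker decrease in PC3 cells. Over all alternatives the KRT81 difference lay between 1.47 and 8.59. Among the genes of the other lists that are named in the text the difference was 1.30 for KLF4 (adjusted p = 9.6e-05), -0.62 for LMNA (8.4e-09), -0.82 for LMNB1 (1.3e-09), -0.46 for LMNB2 (2.0e-07) and 0.32 for ZEB1 (0.012). The ZEB1 difference did not pass with limma on log2(CPM + 1) or log2(CPM + 0.1) (adjusted p = 0.074 and 0.086). Further genes of these lists, other than the cell line marker list, with a difference past the test were ESRP1 (adjusted p = 0.015, with no reads in PC3 vehicle samples and so no size given), JUP (-0.51, 0.0020), PLEC (-0.33, 0.0010) and ITGA6 (0.18, 0.025). The log2 ratio of type II to type I RNA among the 10 keratin genes moved by 0.53 in PC3 cells and by -0.12 in DU145 cells. All 3 treated samples lay on 1 side of the vehicle samples in each line. The summed level of the 10 keratin genes likewise moved by 97.9 CPM in PC3 cells and by -932 CPM in DU145 cells. The difference between the lines was not tested for the ratio and the sum.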

How the results depend on the processing

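In PC3 cells the count of members past the test was 5 and was 3 when at least 10 counts were required in every sample, which leaves KRT17 and KRT81 untested, or when an absolute log2 fold change above 1 was required. That size requirement left 0 of 4 members in DU145 cells and 2 of 4 for the interaction. DESeq2 gave 6 members between the lines and 3 for the interaction. Leaving out 1 sample at a time kept the counts at 5 in PC3 cells, 4 in DU145 cells, 5 between the lines and 4 for the interaction. The summed CPM difference then lay between 92.9 and 106 in PC3 cells, and between -978 and -903 in DU145 cells.

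For single members, 442 of the alternative values kept direction and side of the threshold, 12 reversed and 3 passed only under the alternative. KRT10, whose response and interaction did not pass the test in any alternative, reversed in PC3 cells to 0.032 without PC3 vehicle sample 1. In DU145 cells it reversed to 0.038 with library size alone, 0.038 with limma on log2(CPM + 1), 0.044 on log2(CPM + 0.1), and 0.11, 0.018 and 0.039 without DU145 vehicle sample 2, pentamidine sample 2 and pentamidine sample 3. Its interaction reversed to 0.054, 0.0043 and 0.012 without PC3 vehicle sample 1, DU145 vehicle sample 1 and DU145 pentamidine sample 1, and that of KRT15 to -0.0078 without DU145 vehicle sample 1. Over all samples left out in turn, KRT10 lay between -0.27 and 0.032 in PC3 cells, between -0.11 and 0.11 in DU145 cells and between -0.25 and 0.054 for the interaction, and KRT15 between -0.0078 and 1.01. The KRT17 interaction, which has no usable error in edgeR, was -0.14 with pseudogene reads added, 1.18 on log2(CPM + 1) and 2.49 on log2(CPM + 0.1) (adjusted p = 0.0016 and 0.020 in limma). On log2(CPM + 1) the PC3 values of KRT17 and KRT81 were 1.18 and 1.26, since that scale understates low genes. For the other named genes, 507 alternative values kept the call and 25 lost it. The cause of these changes was not tested.

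Replicate numbers did not pair the samples, as the deviations of same-numbered samples correlated between -0.073 and 0.039. With the replicate block the counts were 5, 4, 5 and 4, and of the named genes only ITGB4 in PC3 cells lost its call (adjusted p = 0.068). Depth limits KRT5, KRT15, KRT19 and, outside treated PC3 cells, KRT17 and KRT81, where changes were not detectable.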
